A study of Mus musculus with 12 samples.

Results

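The antiviral effector genes Mx1, Mx2, Rsad2, Oasl1, Oasl2, Ifit1, Ifit2, Ifit3, Usp18 and Ifih1 were followed through mouse embryonic fibroblasts (MEFs) with and without the transcription factor STAT5 and with and without growth hormone. The genes were taken as a list, which was chosen with earlier results of these data known, and none was dropped for its values. Every probe set that the array's annotation assigns to 1 of them and to no other gene was used. The list holds 10 of the 18194 genes tested. Of the 45101 probe sets on each array, 12 read them in this way: 3 read Rsad2 and 1 read each of the other 9 genes. The cells were C57BL/6 MEFs, and their RNA was measured on 12 Affymetrix arrays, 2 for each of 6 groups. S5-GH and S5 were Stat5-null MEFs into which a retrovirus had carried a STAT5A vector, with growth hormone for 120 minutes and untreated. KO_GH and KO were Stat5-null MEFs without that vector, with the same hormone treatment and untreated, and WT_GH and WT were wild-type MEFs, treated and untreated. Per the design text, each group has biological duplicates. The labels name neither a vehicle control nor an empty vector, nor how many embryos or lines stand behind a genotype, so genotype and cell preparation cannot be told apart.

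Type I interferons bind a receptor on the cell surface and activate the kinases JAK1 and TYK2, which phosphorylate STAT proteins. A complex of STAT proteins and IRF9 then binds a DNA element, the interferon-stimulated response element (ISRE), in front of many target genes. Many of the encoded proteins act against viruses, and several are made by fibroblasts and macrophages alike. Growth hormone activates JAK2 and STAT5, and STAT proteins bind a related element, the interferon-gamma-activated site (GAS).

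The promoters are shown for the members that moved with growth hormone in the results below and whose window held 1 of these elements. RefSeq promoter windows (GRCm38.p6) run from 250 bases before to 50 bases after a gene's start, and 7 of the 10 genes matched, with 8 windows. The ISRE core was searched as GAAANNGAAA and the GAS core as TTCNNNGAA, on both strands. The ISRE core was in windows of 4 of these 7 genes and of 3.99% of the 27025 genes in the table, or 3.44% of its 32851 windows. The GAS core was in a window of 1 of the 7 genes and of 9.55% of all genes, or 8.3% of all windows. No window of a member held both. In the first 3 sequences the capitals mark the ISRE core, which lies on the opposite strand in each, and in the last the capitals mark the GAS core.
Rsad2, chr12:26456403-26456702, minus strand: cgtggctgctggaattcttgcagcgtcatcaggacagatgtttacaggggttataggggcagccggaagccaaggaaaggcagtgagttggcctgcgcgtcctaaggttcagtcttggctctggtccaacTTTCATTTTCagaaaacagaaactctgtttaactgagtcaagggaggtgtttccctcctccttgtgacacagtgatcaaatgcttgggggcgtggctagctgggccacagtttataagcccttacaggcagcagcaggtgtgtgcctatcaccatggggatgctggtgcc
Ifit1, chr19:34640639-34640938, plus strand: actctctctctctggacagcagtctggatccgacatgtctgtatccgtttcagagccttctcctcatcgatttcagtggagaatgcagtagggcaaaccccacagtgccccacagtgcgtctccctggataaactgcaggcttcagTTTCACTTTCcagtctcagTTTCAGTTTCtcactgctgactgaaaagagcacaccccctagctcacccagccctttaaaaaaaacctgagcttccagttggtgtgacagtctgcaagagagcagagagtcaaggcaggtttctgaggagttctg
Ifit3, chr19:34583279-34583578, plus strand: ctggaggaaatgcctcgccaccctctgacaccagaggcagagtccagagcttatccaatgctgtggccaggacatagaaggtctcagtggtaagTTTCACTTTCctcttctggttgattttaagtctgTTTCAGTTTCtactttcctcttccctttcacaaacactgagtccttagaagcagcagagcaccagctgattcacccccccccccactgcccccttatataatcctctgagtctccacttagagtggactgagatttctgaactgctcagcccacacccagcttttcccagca
Ifit2, chr19:34550444-34550743, plus strand: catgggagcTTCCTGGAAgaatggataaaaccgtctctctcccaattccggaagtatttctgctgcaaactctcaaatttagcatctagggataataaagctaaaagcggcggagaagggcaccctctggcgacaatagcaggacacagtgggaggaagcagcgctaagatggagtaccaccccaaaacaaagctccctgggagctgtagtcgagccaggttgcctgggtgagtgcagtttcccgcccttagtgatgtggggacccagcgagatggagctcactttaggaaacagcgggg
The matches lay 120 to 111 bases before the start of Rsad2, 104 to 95 and 85 to 76 bases before that of Ifit1, 156 to 147 and 122 to 113 bases before that of Ifit3, and 241 to 233 bases before that of Ifit2. Both matches of Ifit3 have the same letters as those of Ifit1. Ifih1 had an ISRE core as well, after its start, at positions 32 to 41. The windows of Oasl1 and Oasl2 held neither set of letters.

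The levels are the deposited log2 values. A level below 4 lies in a crowded low mode of the array, where values hardly vary, and 6572 of the 18194 genes lay there in all 6 groups. Changes are differences of log2 group means with the standard error of a limma model over all 12 arrays, and adjusted p-values cover all 18194 genes (Benjamini-Hochberg, two-sided, threshold 0.05). Where the mean of 1 of the groups compared was below 4, the fold was computed against a level of 4 and is given as "at least", while the log2 change is the measured one. An exact permutation test of 2 arrays against 2 cannot give a p below 0.333, so all calls rest on limma's pooled estimate of the spread. That estimate includes groups in the low mode. For genes measured only in WT, SEs and adjusted p-values can therefore be smaller than the WT arrays alone would give. A Stat5a probe set averaged 2.35 in S5-GH, 2.41 in S5, 2.40 in KO_GH, 2.44 in KO, 12.25 in WT_GH and 11.48 in WT. A second Stat5a probe set was above 4 only in the S5 cells, at 9.09 with growth hormone and 9.88 without. The brighter Stat5b probe set averaged 9.36 in WT_GH and 9.01 in WT, and 1.94 to 1.98 in the S5 and KO groups. The other Stat5b probe set was in the low mode in all 6 groups. Cish, a STAT5 target that dampens cytokine signalling, changed with growth hormone by +5.75 in S5 (adjusted p = 4.29e-06), by −0.37 in KO (0.515) and by +3.14 in WT (6.46e-05). Socs2, the other gene that checks the treatment, rose by 4.22 in WT (adjusted p = 2.7e-06) and also rose in S5. Its change of +0.67 in KO did not pass (0.104), though the KO_GH and KO arrays did not overlap.

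The cells also differed in markers of macrophages. The 18 macrophage markers had a summed linear signal of 369.6 to 444.7 on the 4 S5 arrays, 864 to 1070 on the 4 KO arrays and 38520 to 81280 on the 4 WT arrays. Of the 18 markers, 3 reached a level of 4 on each S5 array, 6 or 7 on a KO array and 14 to 17 on a WT array. Ptprc and Adgre1, which mark leukocytes and mouse macrophages, were in the low mode in the 4 S5 and KO groups and averaged 9.34 to 10.83 in the WT groups. Itgam was in the low mode in all 6 groups. All 5 lymphoid and plasmacytoid dendritic cell markers with a probe set were in the low mode on all 12 arrays. Of 12 fibroblast markers, 10 or 11 reached 4 on an S5 array, 11 on each KO array and 12 on each WT array. Thy1, a fibroblast surface marker, averaged 2.88 in S5-GH and 4.31 in S5, against 14.11 to 14.26 in the KO and WT groups. The 3′ minus 5′ difference of the Gapdh probe sets, a sign of RNA integrity, was 1.44 to 1.62 on S5 arrays, 0.94 to 1.11 on KO arrays and 0.89 to 1.22 on WT arrays. That of the Actb probe sets overlapped between genotypes, at 3.04 to 3.15 on S5, 2.71 to 3.07 on KO and 2.55 to 3.13 on WT arrays. The part of the macrophage and fibroblast markers and of RNA integrity in the levels of the antiviral genes was not tested, and fewer cells of a type and less RNA per cell cannot be told apart in such arrays.

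**Figure D1:**
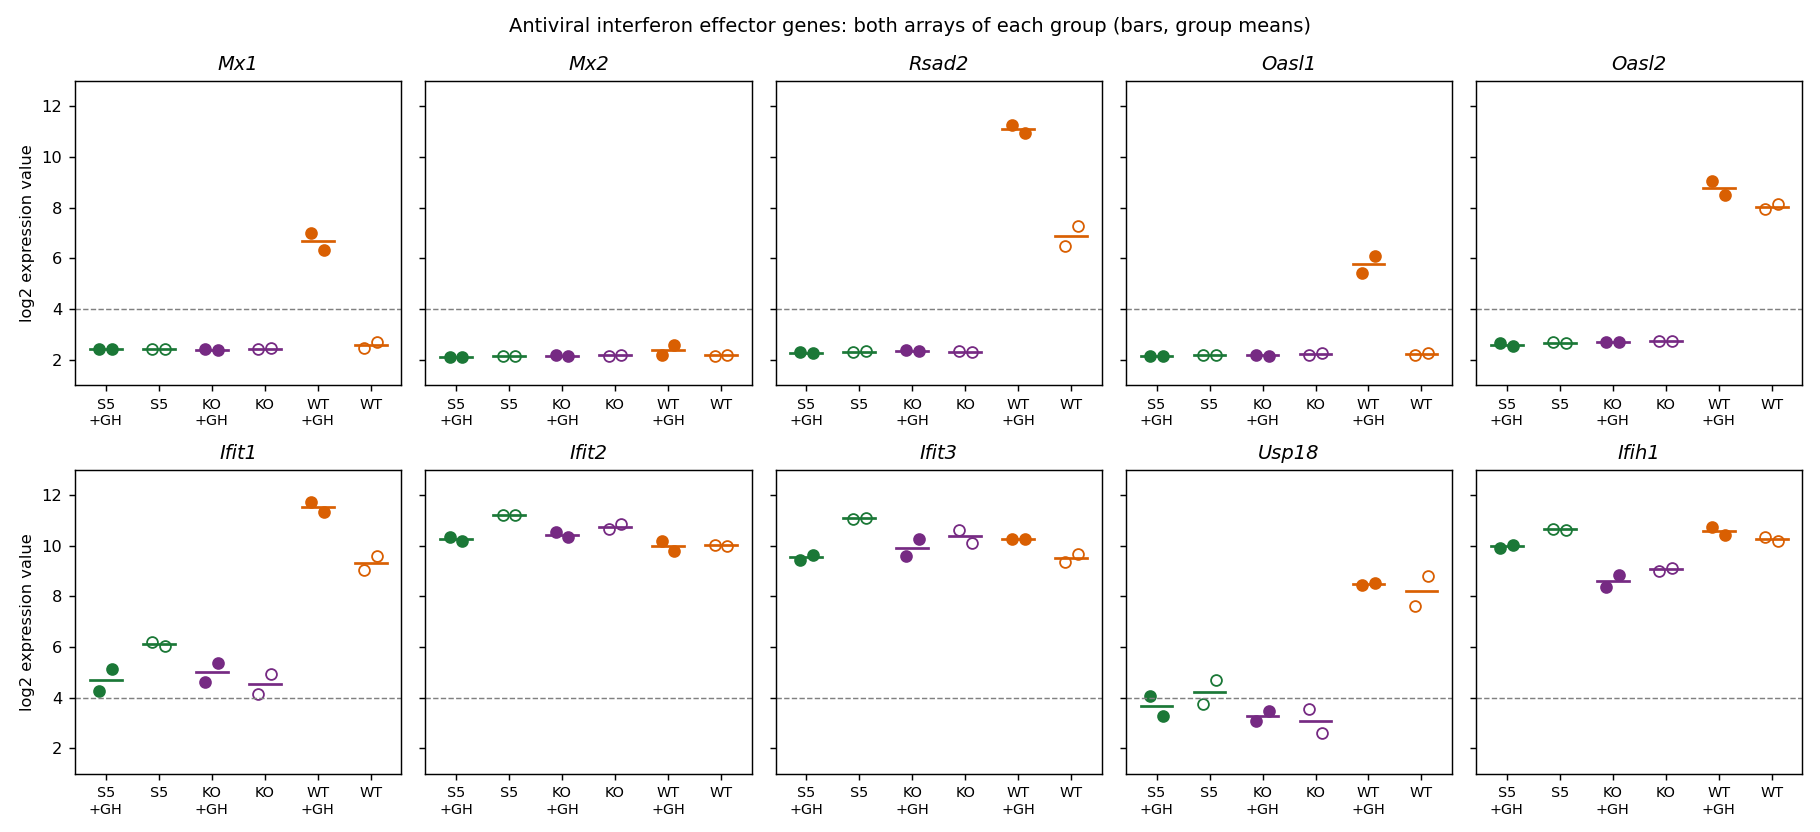
Level of each gene (log2 expression value, vertical axis) on both arrays of each group, with 1 panel per gene and its brightest probe set. Filled points are hormone-treated, open points untreated, short bars are group means and the dashed line marks a level of 4. Mx1 and Oasl1 leave the low mode in hormone-treated WT MEFs alone, Ifit2, Ifit3 and Ifih1 are above 8 on every array, and Mx2 stays below the line throughout.

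The 10 genes fell into classes by where they could be measured. Ifit1, Ifit2, Ifit3 and Ifih1 averaged at least 4 in all 6 groups. Usp18 did so in 3 groups, Rsad2 and Oasl2 in 2, the WT ones, and Mx1 and Oasl1 in 1, the hormone-treated WT. Mx2 did so in none. Thus 4 genes could be measured in KO and S5 MEFs on both sides of the hormone treatment, and the other 6 had at most a bound there in at least 1 group.

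With growth hormone, 5 of the 10 genes rose in WT MEFs and none fell. Over all genes, 6.00% of the 18194 passed this test, 3.06% higher and 2.94% lower. The median change of the 10 genes was +0.75, against −0.04 over all genes. Mx1 and Oasl1 left the low mode, Rsad2 rose 18.6-fold, and Ifit1 and Oasl2 rose by less.

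The Mx genes encode dynamin-like GTPases that block viruses after entry. Mx1 had levels of 7.01 and 6.34 on the WT_GH arrays, against 2.46 and 2.71 on the WT arrays. Both untreated arrays lay in the low mode and both treated ones well above it. The change was +4.09 ± 0.19 (SE, adjusted p = 4.5e-05), or at least 6.38-fold higher with growth hormone. The SD of Mx1 was 0.47 in WT_GH and 0.18 in WT, and 0.016 to 0.051 in the S5 and KO groups, which enter the pooled SE. Its adjusted p was at most 0.0433 in the 22 alternative analyses. Mx2 had levels of 2.17 and 2.57 on the WT_GH arrays, against 2.15 and 2.20 on the WT arrays, all in the low mode. RefSeq lists Mx1 and Mx2 of its C57BL/6J assembly as transcribed pseudogenes, so the transcript level is no measure of protein here.

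Rsad2 encodes viperin, an enzyme that makes a chain-terminating nucleotide. Its brightest probe set had levels of 11.27 and 10.94 on the WT_GH arrays, against 6.48 and 7.29 on the WT arrays. The groups did not overlap, and this was the gene whose group means spanned the widest range of the 10, 8.83. The change was +4.22 ± 0.23 (SE, adjusted p = 9.51e-05), an 18.6-fold rise, and the adjusted p was 0.0507 when the WT arrays were fitted alone. The second probe set averaged 7.93 ± 0.095 in WT_GH (SD, n = 2) and 3.63 ± 1.48 in WT, where its arrays had 2.59 and 4.68, a change of +4.29 (adjusted p = 0.00863 over 34945 probe sets). The third stayed between 2.17 and 2.31 on all 12 arrays. Thus 2 of the 3 probe sets rose together and 1 lay in the low mode throughout.

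The OASL proteins resemble the enzymes that make 2′-5′ oligoadenylates, and mouse Oasl1 is known to limit translation of Irf7. Oasl1 had levels of 5.43 and 6.11 on the WT_GH arrays, against 2.20 and 2.25 on the WT arrays. It left the low mode as Mx1 did, with a change of +3.55 ± 0.18 (SE, adjusted p = 7.01e-05), at least 3.41-fold. Its adjusted p was at most 0.049 in the 22 alternative analyses. Irf7 itself averaged 2.72 in WT_GH and 2.17 in WT, both in the low mode. Oasl2, which lies beside Oasl1 in the genome, had levels of 9.06 and 8.50 on the WT_GH arrays, against 7.94 and 8.15 on the WT arrays. It was already well above the low mode without the hormone, and the treated arrays lay above the untreated ones. Its change was +0.74 ± 0.16 (SE, adjusted p = 0.0456), a 1.67-fold rise that missed the threshold in 16 of 22 alternative analyses, with adjusted p up to 0.249.

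The IFIT proteins bind viral RNA or the translation machinery. Ifit1 had levels of 11.72 and 11.32 on the WT_GH arrays, against 9.03 and 9.58 on the WT arrays. Its change was +2.21 ± 0.41 (SE, adjusted p = 0.0248), a 4.63-fold rise, and the adjusted p reached 0.0551 to 0.114 when any 1 of the 4 WT arrays was left out. Ifit3 had 10.28 on each WT_GH array, against 9.37 and 9.67 on the WT arrays, without overlap, and its change of +0.76 did not pass (adjusted p = 0.136). Ifit2 had 10.18 and 9.80 on the WT_GH arrays, against 10.05 and 10.01 on the WT arrays, which overlapped. Whether the Ifit3 probes also read the near-identical gene Ifit3b was not analysed here.

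Usp18, a protease that removes the ubiquitin-like modifier ISG15 and restrains the interferon receptor, had levels of 8.46 and 8.54 on the WT_GH arrays, against 7.63 and 8.81 on the WT arrays. The untreated arrays lay on both sides of the treated ones (change +0.28, adjusted p = 0.78). Ifih1 encodes MDA5, a sensor of long double-stranded RNA. It had 10.75 and 10.44 on the WT_GH arrays, against 10.34 and 10.19 on the WT arrays. The arrays did not overlap, but the change of +0.32 did not pass (adjusted p = 0.349).

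The macrophage markers were set beside these WT values array by array. Their summed signal was 76180 and 79990 on the WT_GH arrays, against 38520 and 81280 on the WT arrays. Of the 18 markers, 1 rose with growth hormone in WT, Cd14, a co-receptor for bacterial lipopolysaccharide, by 2.69 (adjusted p = 0.0302), and the median change was +0.57. The second WT array had the highest marker sum of the 4. By the mean log2 value of the markers the second WT_GH array was highest, at 10.14, against 10.09 on the second WT array. Levels of Mx1, Rsad2, Oasl1, Oasl2 and Ifit1 on each WT array were below both treated arrays. The part of the macrophage markers in the WT changes was not tested. With the first WT array left out, Mx1 changed by +3.96, Rsad2 by +3.82 and Oasl1 by +3.52. With the second left out, the changes were +4.21, +4.62 and +3.57. Ifit1 changed by +1.94 without the first and +2.48 without the second WT array, and Oasl2 by +0.63 and +0.84. Neither gene passed in these fits.

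**Figure D2:**
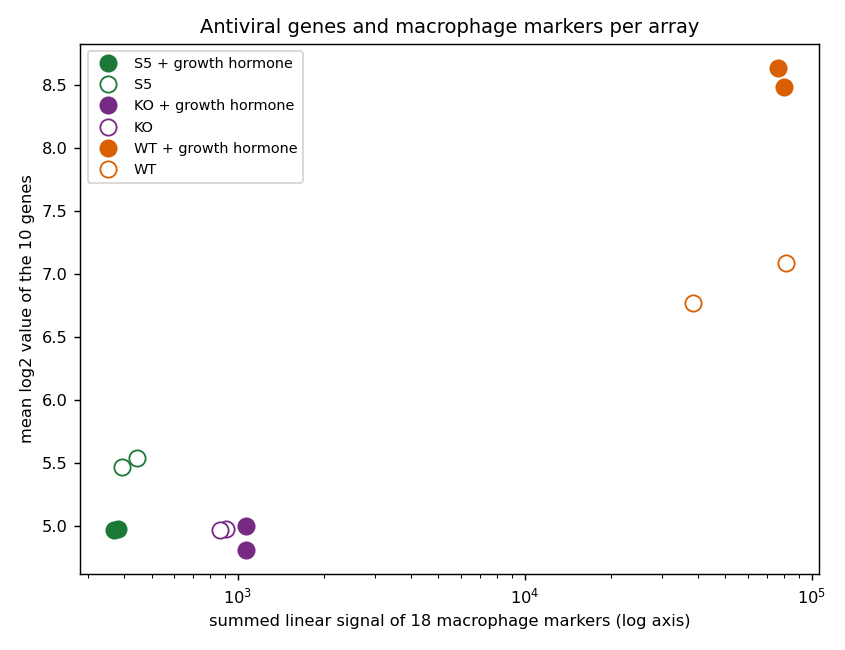
Mean log2 level of the 10 genes (vertical axis) against the summed linear signal of 18 macrophage markers (horizontal axis, log scale) on each of the 12 arrays, filled for hormone-treated and open for untreated. The marker sums are 76180 and 79990 in WT_GH and 38520 and 81280 in WT. The mean levels of the 10 genes are 8.63 and 8.48 in WT_GH and 6.76 and 7.09 in WT. The part of the markers in these levels was not tested.

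In KO MEFs, limma called 0 of the 10 genes with growth hormone, where 0.308% of all genes were called, 0.225% higher and 0.0824% lower, so a count of 0 is near the share over all genes. At an unadjusted p under 0.05 there were 2, Ifit2 and Ifih1, both lower. The median change of the 10 genes was −0.04, against −0.02 over all genes. Mx1, Mx2, Rsad2, Oasl1, Oasl2 and Usp18 were in the low mode with and without the hormone, so no fold can be given for them. Ifit1 had levels of 4.64 and 5.38 on the KO_GH arrays, against 4.14 and 4.95 on the KO arrays, which overlapped. Its change of +0.46 had a 95% interval from −0.50 to 1.43. Ifit2 had 10.53 and 10.33 on the KO_GH arrays, against 10.65 and 10.85 on the KO arrays, and Ifit3 had 9.59 and 10.25, against 10.64 and 10.12. Ifih1 had 8.36 and 8.85 on the KO_GH arrays, against 9.01 and 9.13 on the KO arrays. The arrays of Ifit2 and Ifih1 did not overlap, with changes of −0.32 (adjusted p = 0.486) and −0.46 (adjusted p = 0.398).

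In S5 MEFs, 2 of the 10 genes, Ifit2 and Ifit3, fell with growth hormone and none rose. Over all genes, 7.88% passed, 3.63% higher and 4.25% lower. The median change of the 10 genes was −0.32, against −0.02 over all genes. Ifit2 had levels of 10.34 and 10.20 on the S5-GH arrays, against 11.21 and 11.22 on the S5 arrays. Ifit3 had 9.45 and 9.64 on the S5-GH arrays, against 11.07 and 11.10 on the S5 arrays. For both genes the treated arrays lay clearly below the untreated ones, which were nearly equal. Ifit2 fell by 0.94 on the log2 scale (SE 0.13, adjusted p = 0.00834), or 1.92-fold, and Ifit3 fell by 1.54 (SE 0.24, adjusted p = 0.0116), or 2.91-fold. Without the second S5 array the adjusted p of Ifit2 was 0.0527. That of Ifit3 was 0.0705 without the first S5-GH array, and 0.0588 and 0.0701 without the first and the second S5 array.

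Ifit1 and Ifih1 were also lower on both treated S5 arrays, but did not pass. Ifit1 had levels of 4.28 and 5.13 on the S5-GH arrays, against 6.20 and 6.02 on the S5 arrays, a change of −1.41 (95% interval −2.37 to −0.44, adjusted p = 0.0923). Ifih1 had 9.92 and 10.03 on the S5-GH arrays, against 10.66 and 10.64 on the S5 arrays, a change of −0.67 (95% interval −1.07 to −0.28, adjusted p = 0.0561). Usp18 had 4.05 and 3.27 on the S5-GH arrays, against 3.75 and 4.69 on the S5 arrays, around the edge of the low mode and overlapping. Mx1, Mx2, Rsad2, Oasl1 and Oasl2 were in the low mode on all 4 S5 arrays, between 2.11 and 2.69. Thus the genes that rose most in WT gave no signal in S5 MEFs. Cish responded to the hormone in these cells, which, unlike WT, had no Stat5b signal above the low mode. The S5 cells also differed from WT in macrophage markers, Thy1 and the 3′ minus 5′ difference of Gapdh. The part of Stat5b and of these in the difference was not tested, and the design cannot tell them apart.

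**Figure D3:**
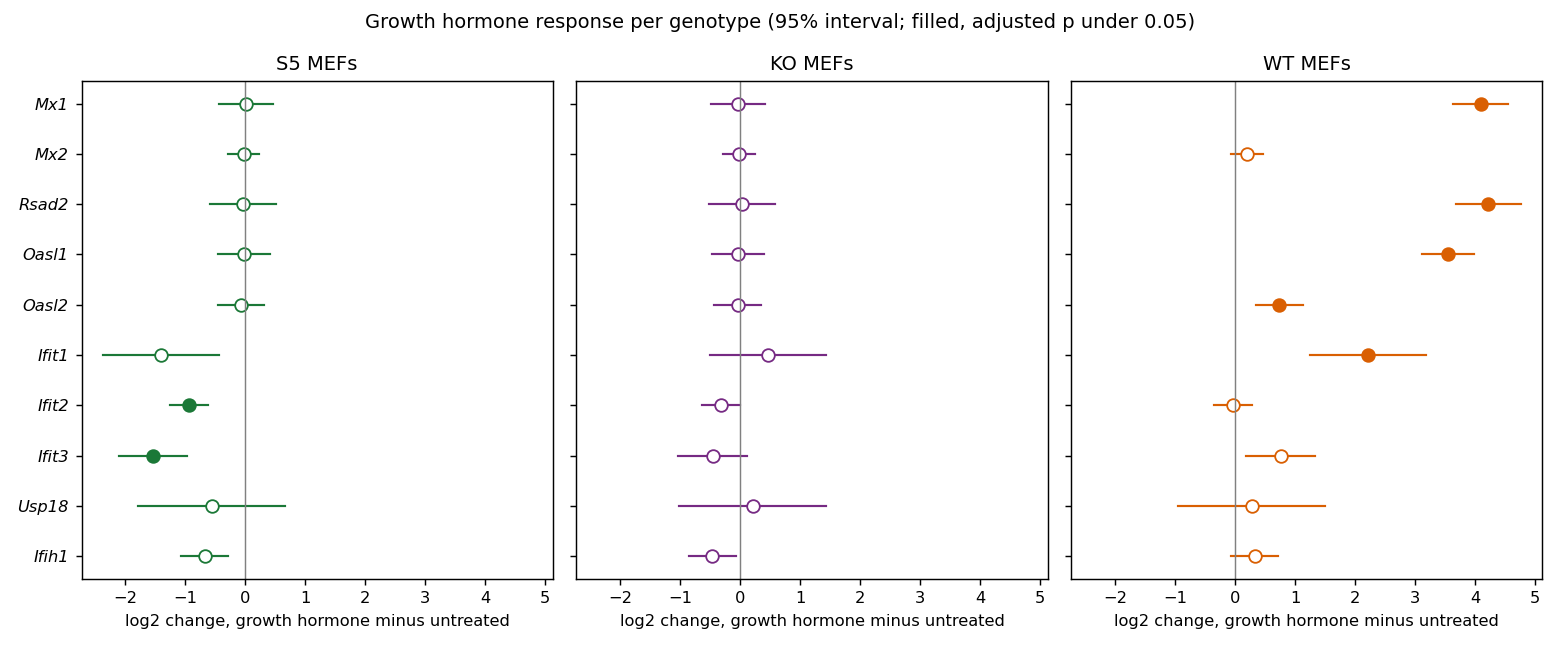
Log2 change with growth hormone (treated minus untreated, horizontal axis) of each gene in S5, KO and WT MEFs, with 95% intervals of the limma model and filled points where the adjusted p was under 0.05. The 5 filled points in WT lie to the right of 0 and the 2 in S5, Ifit2 and Ifit3, to the left. Genes in the low mode of both groups sit near 0.

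The responses themselves were compared between genotypes by interaction terms. Between KO and WT, 3 of the 10 genes differed, all with the higher response in WT, and 1.27% of all genes did (0.846% with the higher response in WT). Mx1 changed by −0.04 in KO and +4.09 in WT, a WT minus KO difference of 4.13 ± 0.27 (SE, adjusted p = 0.000486). Rsad2 changed by +0.03 in KO and +4.22 in WT, a difference of 4.19 ± 0.33 (adjusted p = 0.00122). The second Rsad2 probe set had a difference of 4.30 that did not pass (adjusted p = 0.0847 over 34945 probe sets). Oasl1 changed by −0.04 in KO and +3.55 in WT, a difference of 3.58 ± 0.26 (adjusted p = 0.000832). All 3 were in the low mode in KO with and without the hormone, so these KO responses are differences between values at the bottom of the scale. Ifit1 and Oasl2, which rose in WT, did not differ in response between KO and WT beyond the threshold (adjusted p = 0.347 and 0.272).

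Between S5 and WT, 5 of the 10 responses differed, all lower in S5, and 2.92% of all genes did (1.52% lower and 1.41% higher in S5). For Mx1, Rsad2 and Oasl1, in the low mode in S5, the S5 minus WT differences were −4.08, −4.26 and −3.57 (adjusted p = 0.000393, 0.000785 and 0.000588). Ifit1 could be measured in all 4 of these groups. It changed by −1.41 in S5 and +2.21 in WT, a difference of −3.62 ± 0.58 (SE, adjusted p = 0.0212). Ifit3 changed by −1.54 in S5 and +0.76 in WT, a difference of −2.30 ± 0.34 (adjusted p = 0.0155). Ifit1 and Ifit3 each missed the threshold in 5 of 22 alternative analyses, with adjusted p up to 0.0756 and 0.0578. Between S5 and KO, limma called 0 of the 10 responses, against 1.13% of all genes (0.643% higher and 0.484% lower in S5), and 3 had an unadjusted p under 0.05. These were Ifit1, Ifit2 and Ifit3, with S5 minus KO differences of −1.87, −0.62 and −1.08 (adjusted p = 0.271, 0.266 and 0.282). The 3 interaction comparisons share arrays, so their differences are not independent of each other.

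Without the hormone, KO MEFs had 5 of the 10 genes lower than WT and 2 higher, where 27.1% of all genes differed (13.2% lower and 13.9% higher). Oasl2 had levels of 2.72 and 2.75 on the KO arrays, against 7.94 and 8.15 on the WT arrays, and fell by 5.31 (adjusted p = 1.51e-06), at least 16.5-fold. Rsad2 was at 2.33 and 2.31 on the KO arrays, against 6.48 and 7.29 on the WT arrays, at least 7.39-fold lower (adjusted p = 1.43e-05). That is its brightest probe set. The second averaged 3.63 in WT, in the low mode, and did not pass (−1.30, adjusted p = 0.169 over 34945 probe sets). Usp18 had 3.55 and 2.60 on the KO arrays, against 7.63 and 8.81 on the WT arrays, at least 18.7-fold lower (adjusted p = 0.000395). On the brightest probe sets, the KO and WT arrays of these genes were separated by several log2 units. Ifit1 had 4.14 and 4.95 on the KO arrays, against 9.03 and 9.58 on the WT arrays, 27.1-fold lower (adjusted p = 0.000174). Ifih1 was 2.29-fold lower (adjusted p = 0.00175). The other direction was seen for Ifit2, which was 1.65-fold higher in KO (change +0.73, adjusted p = 0.00626), and for Ifit3, 1.82-fold higher (+0.86, adjusted p = 0.0353, up to 0.195 in the 10 of 22 alternatives where it missed the threshold). Of the 18 macrophage markers, 14 were lower in KO than in WT in the same test, and of the 12 fibroblast markers 3 were lower and 2 higher.

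Untreated S5 MEFs, set against KO MEFs, had 3 of the 10 genes higher and none lower. Of all genes, 27.4% differed (15.5% higher and 11.9% lower), so the number called is near the share over all genes. Ifih1 had levels of 10.66 and 10.64 on the S5 arrays, against 9.01 and 9.13 on the KO arrays, 2.99-fold higher (+1.58 ± 0.17 SE, adjusted p = 0.000354). Ifit1 had 6.20 and 6.02 on the S5 arrays, against 4.14 and 4.95 on the KO arrays, 2.97-fold higher (adjusted p = 0.0264). Ifit2 was 1.38-fold higher (adjusted p = 0.0408), a call lost in 9 of 22 alternatives, and that of Ifit1 was lost in 4. The S5 arrays lay above the KO arrays for all 3 genes. Of the 18 macrophage markers, 3 were lower in S5 than in KO, near the share over all genes, and none was higher. Of the 12 fibroblast markers 4 were lower and 1 higher.

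Untreated S5 MEFs, set against WT MEFs, had 2 genes higher and 4 lower, where 34.7% of all genes differed (19.2% higher and 15.4% lower). Ifit2 was 2.28-fold higher in S5 (adjusted p = 0.000419) and Ifit3 2.97-fold higher (adjusted p = 0.0019). Ifit3 had 11.07 and 11.10 on the S5 arrays, against 9.37 and 9.67 on the WT arrays. Ifit1 was 9.15-fold lower in S5 (adjusted p = 0.000768), so genes of the Ifit cluster stood in opposite order between these cells. Rsad2 and Oasl2 were at least 7.39-fold and at least 16.5-fold lower, and Usp18 averaged 4.22 in S5 and 8.22 in WT (adjusted p = 0.000832). The second Rsad2 probe set did not pass (−1.32, adjusted p = 0.134 over 34945 probe sets). Ifih1 did not pass (+0.38, adjusted p = 0.128). Of the 18 macrophage markers, 15 were lower in S5 than in WT, and of the 12 fibroblast markers 7 were lower and 1 higher.

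With the hormone, 7 of the 10 genes were lower in KO_GH than in WT_GH and 1 was higher, where 30.1% of all genes differed (13.8% lower and 16.3% higher). Rsad2 was at least 137.8-fold lower (adjusted p = 4.41e-07) and Ifit1 91.0-fold lower (adjusted p = 3.33e-05). Ifit2 was the higher one, 1.36-fold (adjusted p = 0.0446), a call lost in 15 of 22 alternatives. In S5-GH against KO_GH only Ifih1 passed, 2.59-fold higher (+1.37, adjusted p = 0.000678), where 28.9% of all genes differed (15.0% higher and 13.9% lower). It had 9.92 and 10.03 on the S5-GH arrays, against 8.36 and 8.85 on the KO_GH arrays. In S5-GH against WT_GH, 7 genes were lower and none higher, where 36.9% of all genes differed (16.7% lower and 20.2% higher). Ifit1 was 112.3-fold lower there (adjusted p = 1.52e-05) and Ifih1 1.53-fold lower (adjusted p = 0.023, lost in 4 of 22 alternatives). With growth hormone, Ifit3 did not pass (adjusted p = 0.379 for KO_GH against WT_GH and 0.0504 for S5-GH against WT_GH). The second of these passed in several alternatives, among them quantile normalization (0.0404) and another prior (0.0319).

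The rest of the pathway was read from lists of genes, of which 88 of 98 had a probe set. Their counts stand against the shares of all genes called with growth hormone, which were 3.63% higher and 4.25% lower in S5, 0.225% and 0.0824% in KO, and 3.06% and 2.94% in WT. The median change over all genes was −0.02 in S5 and KO and −0.04 in WT. With so few called in KO, a count of 0 there is near the share over all genes. Of 10 listed interferon genes, 6 were tested and none of these was measurable. No probe set was matched to Ifnl2, Ifnl3, Ifne and Ifnk. Ifnb1, Ifna1, Ifna2, Ifna4, Ifna5 and Ifng were in the low mode in all 6 groups, and 0 of 6 passed limma's test in any genotype, with 0 at an unadjusted p under 0.05. Among 10 receptor and signalling genes, 5 rose with growth hormone in WT, 0 changed in KO (1 at an unadjusted p under 0.05) and 1 rose in S5. Their median change was +0.06 in S5 and KO and +0.42 in WT. Ifnar1, a chain of the type I receptor, rose by 0.73 in WT (adjusted p = 0.0122), and Tyk2, the kinase bound to it, rose by 1.25 (0.0178). The interferon-gamma receptor chains Ifngr1 and Ifngr2 rose by 0.86 and 1.09 in WT (0.0276 and 0.0351), and Il10rb rose by 0.45 (0.0419). In S5 the gene that rose was Stat2, a component of the complex that binds the ISRE, by 1.19 (adjusted p = 0.011). Irf9, the DNA-binding part of that complex, changed by +0.36 in S5, +0.28 in KO and −0.06 in WT and passed in none.

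Among 15 genes of virus sensing and interferon induction, 3 rose and 1 fell in WT, 0 changed in KO (5 at an unadjusted p under 0.05), and 3 rose and 1 fell in S5. Their median change was +0.16 in S5, +0.06 in KO and +0.15 in WT. Irf1, a transcription factor that binds ISRE-like DNA, averaged 9.46 in S5-GH and 7.33 in S5, 7.79 in KO_GH and 6.99 in KO, and 10.60 in WT_GH and 7.51 in WT. It rose by 2.13 in S5 (adjusted p = 0.00164) and by 3.09 in WT (0.000214), and its change of +0.80 in KO did not pass (0.201). Ddx58, which encodes the RNA sensor RIG-I, rose by 0.58 in WT (adjusted p = 0.00703), and Ikbke rose by 1.57 (0.0201), while Tlr4 fell by 1.29 (0.0129). In S5, Sting1, the adaptor for cytosolic DNA sensing, rose by 2.67 (adjusted p = 0.00312) and the kinase Tbk1 by 0.60 (0.0305), while Tlr3 fell by 0.38 (0.0335).

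Among 34 other antiviral genes, 8 rose with growth hormone in WT, 0 changed in KO (2 at an unadjusted p under 0.05), and 5 rose and 1 fell in S5. Their median change was +0.01 in S5, −0.02 in KO and +0.21 in WT. Parp14, an ADP-ribosyltransferase, rose by 2.43 in S5 (adjusted p = 0.00878) and by 3.33 in WT (0.00245). In WT, Ifitm1, which blocks viral entry, rose by 2.92 (adjusted p = 0.00324), Rtp4 by 1.81 (0.0124) and Dtx3l by 0.98 (0.0046). Oas1a rose by 1.74 in WT (adjusted p = 0.00879), at least 2.71-fold. In S5, Samhd1, which depletes nucleotides, rose by 1.02 (adjusted p = 0.00237), and Ifi35, Adar and Bst2 rose by 0.57, 0.57 and 0.72 (0.00207, 0.0154 and 0.0425), while Pml fell by 0.69 (0.0252). The S5 cells thus held antiviral genes that rose beside the Ifit genes that fell.

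Of 17 genes typical of interferon gamma, 10 rose in WT, 1 in KO and 4 in S5, with median changes of +0.10 in S5, +0.12 in KO and +1.22 in WT. Cxcl10, which encodes a chemokine, rose by 6.11 in S5 (adjusted p = 1.97e-06), by 3.65 in KO (0.000159) and by 4.89 in WT (1.77e-06). Cxcl9 and Cxcl11 left the low mode in WT alone, at least 7.75-fold and at least 8.12-fold higher. Their levels were between 2.34 and 2.55 in the S5 and KO groups. Ifi47, an immunity-related GTPase, rose by 4.40 in S5 (adjusted p = 4.21e-05) and by 2.66 in WT (0.000397). Of 6 genes that restrain the pathway, 1 rose and 1 fell in WT, 0 changed in KO (1 at an unadjusted p under 0.05), and 2 rose and 1 fell in S5, with median changes of +0.02 in S5, −0.02 in KO and +0.32 in WT. Socs3, an inhibitor of JAK kinases, rose by 2.53 in S5 (adjusted p = 0.00397) and changed by +1.10 in WT (0.0822). Ptpn2, a phosphatase of JAK and STAT proteins, rose by 0.43 in S5 (0.0101) and by 0.56 in WT (0.00393), and Pias1 fell by 0.59 in S5 (0.00343) and by 0.31 in WT (0.0425).

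**Figure D4:**
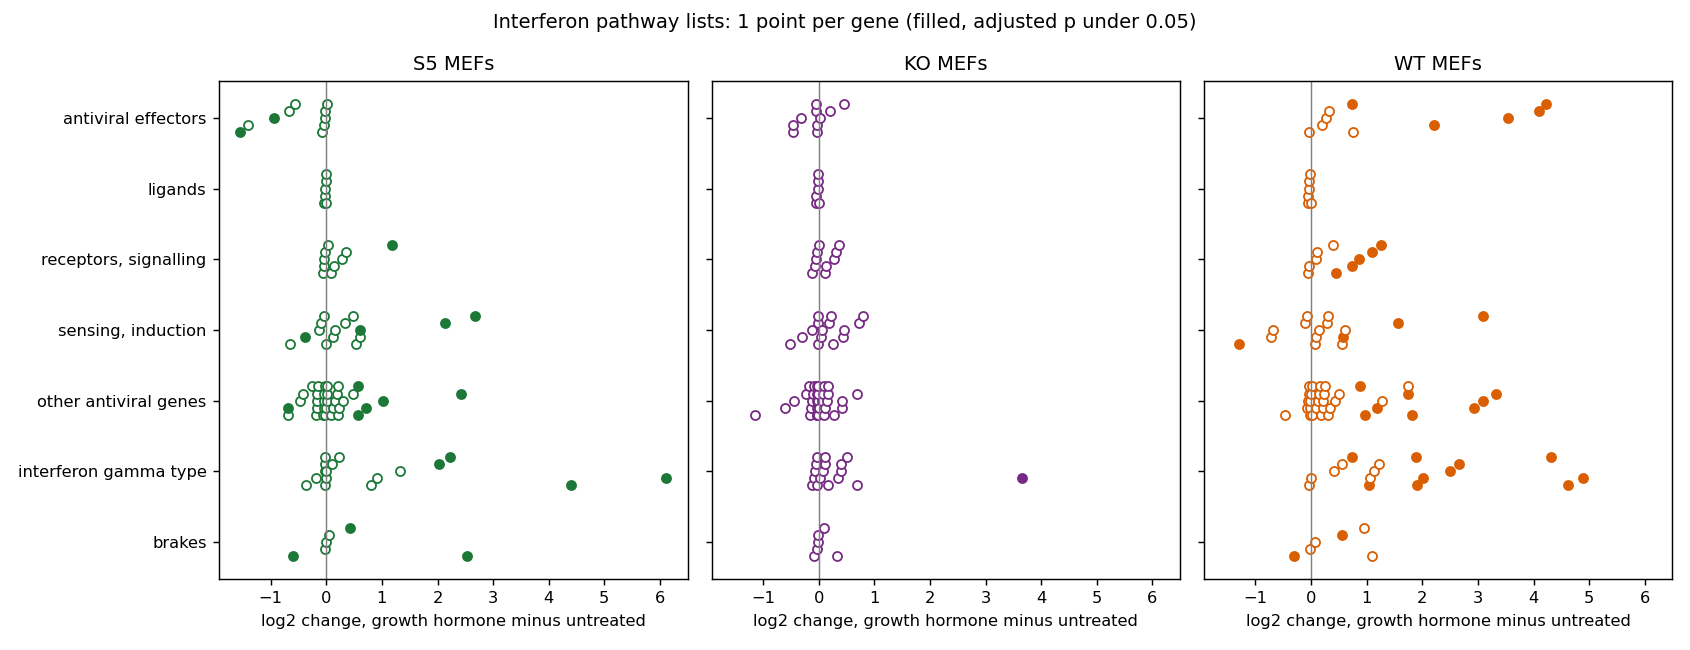
Log2 change with growth hormone (treated minus untreated, horizontal axis) of each gene in 7 lists of the interferon pathway, the 10 antiviral effectors at the top, in S5, KO and WT MEFs. Filled points had an adjusted p under 0.05, and values are as measured, also in the low mode. The 6 ligand genes sit at 0 in each panel, 10 of 17 interferon gamma genes are filled in WT, and the 1 filled point in KO is Cxcl10.

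The 15 genes that lie next to the 10 on their chromosomes in the RefSeq order all had a probe set. In WT, 1 of these 15 neighbours rose with growth hormone, where 3.06% of all genes did, so the count is near that share. Cmpk2, a mitochondrial nucleotide kinase gene beside Rsad2, averaged 8.02 in WT_GH and 4.93 in WT (+3.09 ± 0.53 SE, adjusted p = 0.0178). It was in the low mode in the S5 and KO groups, as Rsad2 was. In S5, 2 of the 15 fell, where 4.25% of all genes did, and both belong to the Ifit cluster. Ifit1bl1, next to Ifit3, averaged 8.26 in S5-GH and 9.95 in S5, a change of −1.69 ± 0.17 (adjusted p = 0.00204). Ifit1bl2, next to Ifit1, averaged 6.72 in S5-GH and 8.77 in S5, a change of −2.05 ± 0.25 (adjusted p = 0.00472). The 5 genes of this cluster that were read, Ifit1 included, were lower on average with the hormone in S5, and 4 of them passed. Lipa, on the other side of Ifit2, and Slc16a12, on the other side of Ifit1, did not pass in S5 (changes −0.21 and −0.14). None of the 15 neighbours passed in KO.

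Other genes were ranked by how near their profile over the 12 arrays lay to the mean profile of the 9 members that reached a level of 4. The measure was the root mean square difference, among 11613 genes that reached that level too. The 8 closest were Acan (0.31), Oas1a (0.33), Rcsd1 (0.35), Sema4a (0.37), Afp (0.42), Foxs1 (0.44), AI504432 (0.44) and Mmp10 (0.45). Of these, Oas1a is in the antiviral list. Each of the 8 was in the low mode in the S5 and KO groups and above 4 in WT_GH. The members themselves lay 0.79 (Mx1 and Oasl1) to 1.91 (Rsad2) from their mean profile, so it stands for none of them closely. The 8 genes were picked as the nearest to it, so their lying nearer than the members follows from the pick. This distance is a description over 12 arrays, most of whose spread lies between WT and the other cells.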

How the data were processed

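The authors' deposited values were taken to be on a log2 scale. GCOS and RMA, a multi-array summary of probes, are named in the submitters' processing notes. Settings, versions, any base-composition adjustment and the genome build are not given in the sources used here, and no label states the log2 scale in words. Probe sets were named through the annotation table supplied for the array. Left out were 64 control probe sets, 932 whose entry gives several genes and 9160 that have no gene, and the brightest of a gene's probe sets represented it, which left 18194 genes. Limma 3.58.1 (R 4.3.3) fitted 1 mean per group, with 6 residual and 1.2 prior degrees of freedom, and 12 contrasts were adjusted by the Benjamini-Hochberg method. The script was also tested on simulated data. With 2 arrays in a group, precision is low throughout. SDs and SEs measure the spread between arrays, since nothing beyond the word biological says how the duplicates were grown.

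The members, the lists, the bound of 4 and the tests were chosen with earlier results of these data known. All members were named, up to 6 genes of each list per comparison with the smallest adjusted p, any gene of the ligand, receptor and sensing lists, 4 genes that check genotype and treatment, and the 8 genes of nearest profile. Neighbours were named by position. Alternatives were other summaries of probe sets, other scalings, another prior, array weights, a replicate block, the groups compared alone, low genes left out, each array left out, and, chosen after seeing the data, values below 4 set to 4. RefSeq tables (GRCm38.p6) gave promoter windows, names and neighbours, and promoters of Mx1, Mx2 and Usp18 were not used here. Figures were drawn with matplotlib 3.10.9.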

Additional observations from a re-analysis of the deposited data

Results flagged for a closer look

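The growth hormone responses of Mx1, Rsad2 and Oasl1 differed between KO and WT MEFs by limma's interaction test, with WT minus KO differences of 4.13, 4.19 and 3.58 on the log2 scale. The same genes differed between S5 and WT, with S5 minus WT differences of −4.08, −4.26 and −3.57. The second Rsad2 probe set missed the threshold for WT minus KO (4.30, adjusted p = 0.0847) and passed for S5 minus WT (−4.29, 0.0426), both over 34945 probe sets. For these 3 genes the S5 and KO arrays all lay in the low mode, so their responses there lie at the bottom of the scale. Ifit1 and Ifit3 differed between S5 and WT as well, by −3.62 and −2.30, and these genes could be measured in all 4 groups. In both, the mean was lower with the hormone in S5 and higher with it in WT. Of the 18 macrophage markers, 14 were lower in KO and 15 in S5 than in WT without the hormone, and 16 and 17 with it, and their part in these differences was not tested.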

How the results depend on the processing

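No call among the 10 genes changed direction in 22 alternatives: of 2616 values, 2425 kept their direction and side of the threshold, 55 changed sign with no call on either side, 80 lost a call and 56 gained one. The number of the 10 genes called moved by over 1.5 times in 9 of the 22 alternatives, for 16 of 264 counts. In WT, growth hormone called 2 genes (Mx1 and Oasl1) when the groups compared were fitted alone. In S5 it called 4 with low genes left out, with array weights and with values below 4 set to 4. With 1 array left out at a time, hormone calls ran from 3 to 4 in WT and from 0 to 3 in S5 and stayed at 0 in KO. WT had 3 calls without either S5 or either WT array, and S5 had 1, 1 and 0 without the first S5-GH array and the first and second S5 arrays. Response differences ran from 3 to 4 (WT minus KO), 0 throughout (S5 minus KO) and 3 to 6 (S5 minus WT). Untreated calls ran from 6 to 7 (KO minus WT), 1 to 4 (S5 minus KO) and 6 to 7 (S5 minus WT), and hormone-treated ones from 7 to 9, 1 throughout, and 6 to 8. The arrays share only replicate numbers: replicate deviations of treated and untreated arrays correlated at 0.07 in S5, −0.34 in KO and −0.04 in WT over 11622 genes. A replicate block called 4 genes in WT, without Oasl2 (adjusted p = 0.0666), and changed no other call among the 120 tested. Over all genes, counted by gene, hormone calls were 266 to 1241 in WT (1092 as reported), 0 to 140 in KO (56) and 532 to 2914 in S5 (1433). Response differences ran from 116 to 355 (231), 114 to 267 (205) and 363 to 825 (532). S5-GH against KO_GH called 3494 genes with the groups compared fitted alone (5256). Tested on their own, 34945 probe sets gave 1325 hormone calls in WT (3.79%, against 6.00% of genes), 84 in KO (0.24%) and 2390 in S5 (6.84%), and the share called was below that of genes in all 12 comparisons. Centring on the median turned the S5 split of 660 higher and 773 lower genes into 513 and 1081. Levels below 4 limit what can be measured, and 6 of the 10 genes had at least 1 group there.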
